A study of Mus musculus with 16 samples.

Results

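FGF receptors and their feedback inhibitors were followed in muscle stem cells (MuSCs) through 10 genes (the members): the receptors Fgfr1 and Fgfr4, the ligand Fgf2, the Sprouty genes Spry1, Spry2 and Spry4, the Sprouty-related Spred1, the phosphatase Dusp6 and the transcription factors Etv4 and Etv5. They were chosen by symbol as FGF signalling genes with known roles in MuSC quiescence, and all 10 are among the 24411 genes of the count table. The table covers 16 libraries of MuSC RNA, 4 in each of 4 groups. Control mice are called wild type in the sample records, and whether they received tamoxifen is not stated for these libraries. TRF2 MuSC-cKO (cKO) mice carry floxed TRF2 that is deleted by the Pax7-driven, tamoxifen-inducible Cre, so that deletion is limited to cells that express Pax7 when tamoxifen is given. Each genotype was sampled uninjured and 3 days after injection of 10 µl of notexin, a snake toxin that destroys myofibers, into the tibialis anterior muscle (3 DPI). All mice were adults on a C57BL/6 background, and the isolation protocol takes all hindlimb muscles, sorting live cells without CD45, CD31, CD11b and Sca1 and with α7-integrin and either VCAM or CD34. For its injury time course the paper shows MuSCs isolated from the tibialis anterior, and it does not say which source these libraries used. The records describe the replicates as biological, 4 per group.

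FGF ligands bind a receptor tyrosine kinase together with heparan sulfate chains on the cell surface, and the active receptor signals through adaptor proteins to RAS, RAF, MEK and ERK. ERK activity switches on its own brakes: Sprouty and Spred proteins block the path from receptor to RAF, and DUSP6 removes phosphate from ERK. ETV4 and ETV5 are ETS factors that are commonly read as targets of the same pathway. In resting MuSCs, FGFR1 and FGFR4 are the main receptors, FGF2 can push the cells out of quiescence and Spry1 helps to keep or return them to it.

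Library totals ran from 620506 to 1351130 estimated counts, so 1 CPM (counts per 1000000 in the genes that passed the filter on low counts, scaled by TMM over the 16 libraries) stood for about 1 read and low genes were read coarsely. The targeted gene Terf2 was measured at 71.5, 94.5, 66.3 and 73.1 CPM in uninjured control libraries and at 49.7, 46.7, 58.7 and 27.2 CPM in uninjured cKO libraries. At 3 DPI it was measured at 35.5, 48.6, 48.2 and 42.8 CPM in control libraries and at 52.6, 21.9, 66.9 and 89.7 CPM in those labelled cKO. Uninjured cKO libraries lay below every control library, whereas at 3 DPI the groups overlapped and 3 of 4 cKO libraries were above the control libraries, which goes against the label. A gene-level count does not separate the deleted exons from the rest of the gene, so 3 DPI libraries are named below by their label only. Neither genotype difference in Terf2 was called (log2 fold change −0.62, SE 0.27, adjusted p = 0.199, and 0.44, SE 0.42, adjusted p = 0.755, edgeR quasi-likelihood test). Replicate 3 of the libraries labelled cKO at 3 DPI stood apart, with counts in 15389 genes against 19996 to 21881 in the others and a mean correlation of 0.46 with its group against 0.63 to 0.66 for the other 3, so the fitted differences and shares that involve this group are also given without it. The 7 MuSC markers Pax7, Myf5, Vcam1, Itga7, Cdh15, Calcr and Sdc4 were detected in every library, except Calcr in that one. The sample records hold a code whose meaning is not stated. It was shared between the genotypes only by replicates 1 and 2 of each genotype at 3 DPI. In uninjured muscle code and genotype cannot be told apart. Within each genotype, replicate 4 uninjured and replicates 3 and 4 at 3 DPI shared a code across injury states. The codes of the other libraries occurred in 1 injury state only, so code and injury are largely not separated in the injury comparisons.

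In uninjured control MuSCs the feedback gene Spry1 and the receptors were the most abundant members. On a scale corrected for transcript length, as abundance per 1000000, Spry1 had a mean of 644, Fgfr4 of 612 and Fgfr1 of 463, which placed all 3 above the 99th percentile of detected genes. Spry1 and Fgfr4 overlapped between libraries, and Fgfr4 lay above Fgfr1 in every library. A second tier held Spred1 at 102, Etv5 at 95.3 and Spry2 at 82.1, which overlapped with their neighbours in that order. Spry4 at 40.4, Dusp6 at 30.7, Etv4 at 20.3 and Fgf2 at 18.2 formed the lowest tier, again each overlapping with the next. At 3 DPI the order had flattened: in control libraries Fgfr1 at 91.4, Fgfr4 at 90.5 and Spry1 at 83.5 overlapped, Dusp6 followed at 57.5, and Spry4 was last at 18.9. In the libraries labelled cKO at 3 DPI every neighbour in the order overlapped, with Fgfr1 first at 79.0, Etv4 next at 64.7 and Fgfr4 near the bottom at 21.8.

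**Figure D1:**
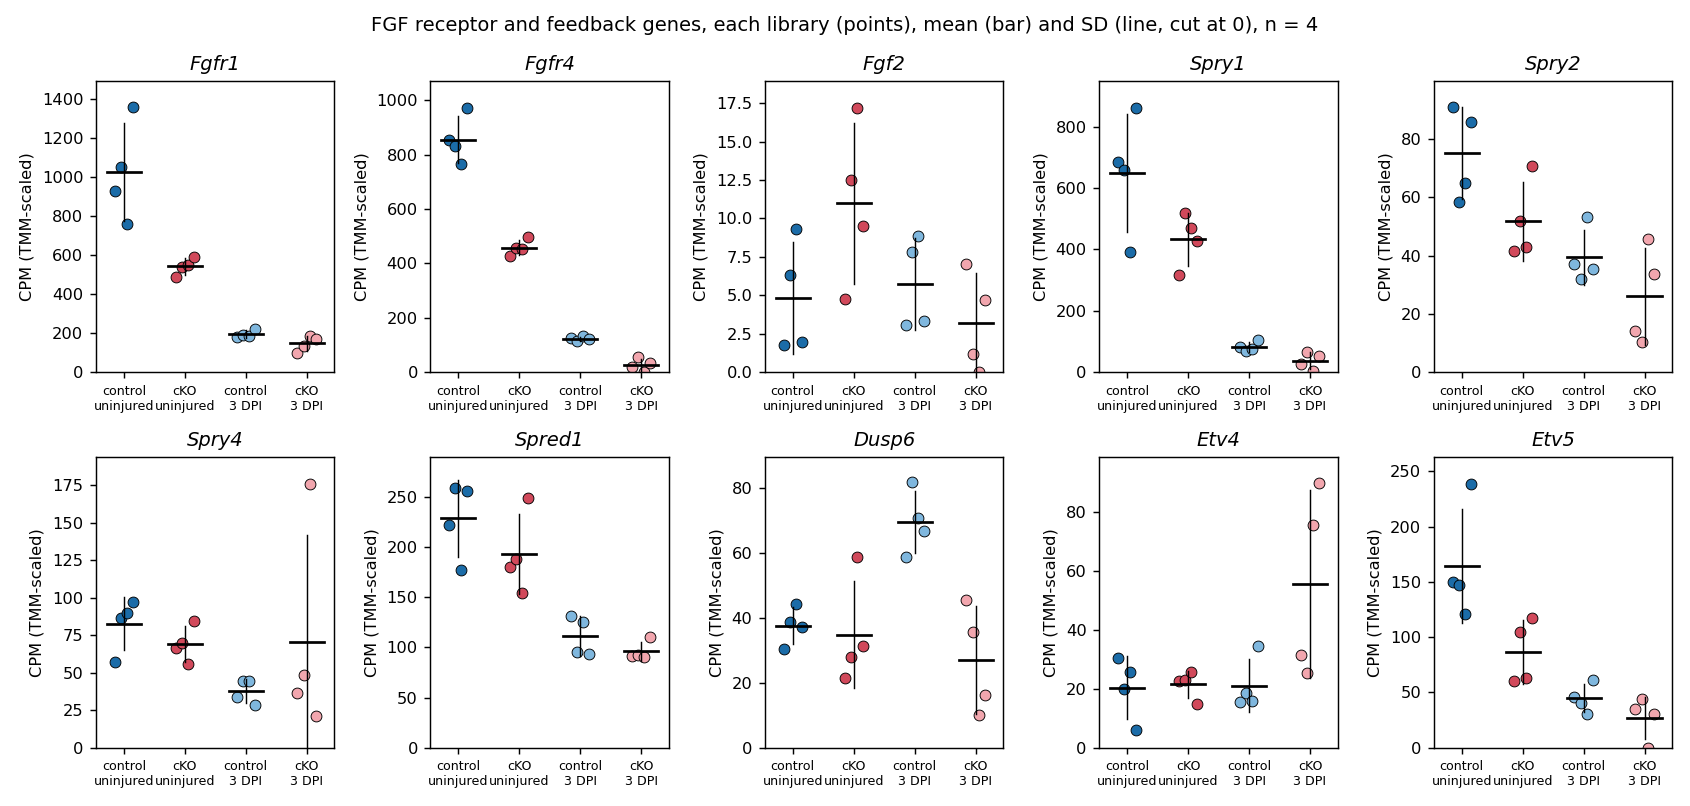
CPM of the 10 members (vertical axes from 0, one panel each) in the 4 libraries of each group, with the group mean as a bar and the SD as a line. Fgfr1, Fgfr4, Spry1, Spry2, Spred1 and Etv5 step down from left to right in group mean, Dusp6 peaks in control libraries at 3 DPI, and replicate 3 labelled cKO at 3 DPI reads 176 CPM for Spry4 and 0 for Etv5 and Fgf2.

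Promoters are shown for the pair of members whose levels were most alike, Fgfr4 and Spry1, and for Spry2, which holds a G-quadruplex pattern on the minus strand of its promoter window. Each window spans 250 bases before to 50 bases after the transcription start, from RefSeq (GRCm38.p6), printed 5′ to 3′ on the gene's own strand. Capitals mark the G-quadruplex pattern (4 runs of GGG with 1 to 7 bases between them, or its CCC complement). Matches that overlap a marked match are not marked, so lower-case bases next to the capitals can also belong to the pattern. Fgfr4 (chr13:55152568-55152867, plus strand) and Spry1 (chr3:37639697-37639996, plus strand) hold none of the letters searched, and Spry2 is at chr14:105896770-105897069 on the minus strand.
Fgfr4: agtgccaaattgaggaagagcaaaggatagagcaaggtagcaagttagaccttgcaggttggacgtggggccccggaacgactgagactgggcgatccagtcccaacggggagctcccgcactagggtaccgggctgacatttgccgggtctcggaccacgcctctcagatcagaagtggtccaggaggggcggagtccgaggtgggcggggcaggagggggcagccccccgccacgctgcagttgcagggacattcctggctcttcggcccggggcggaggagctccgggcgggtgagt
Spry1: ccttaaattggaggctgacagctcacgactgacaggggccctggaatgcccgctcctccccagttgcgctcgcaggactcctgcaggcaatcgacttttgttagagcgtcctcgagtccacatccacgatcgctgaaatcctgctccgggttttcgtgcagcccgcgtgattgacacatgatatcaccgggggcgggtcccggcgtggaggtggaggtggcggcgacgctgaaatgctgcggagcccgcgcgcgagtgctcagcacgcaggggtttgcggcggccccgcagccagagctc
Spry2: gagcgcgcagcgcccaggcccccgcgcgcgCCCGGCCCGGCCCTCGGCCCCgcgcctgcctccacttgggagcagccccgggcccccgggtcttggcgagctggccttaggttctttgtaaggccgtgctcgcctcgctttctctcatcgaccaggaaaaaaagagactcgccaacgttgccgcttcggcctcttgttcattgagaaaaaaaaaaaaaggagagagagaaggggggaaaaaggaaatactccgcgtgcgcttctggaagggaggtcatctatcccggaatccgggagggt

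Windows matched 7 of the 10 members, with 8 windows because Etv5 has 2, and Fgfr1, Spry4 and Etv4 had none. In the Spred1 window and 1 of the 2 Etv5 windows, bases 251 to 280 were not found near the start of any annotated transcript of the gene. The Spred1 window ended before the annotated start of the gene. Both strands were searched. The ETS core CCGGAAGT was in 0 of the 8 windows and in 3.89% of 32851 promoters of the same length. The telomere repeat TTAGGG was in 0 of 8 and in 10.6% of all. The G-quadruplex pattern was in 3 of 8, in Fgf2, Spred1 and Spry2, and in 18.5% of all. A match is a description of letters and not of a bound site.

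In uninjured muscle both receptors were lower in cKO MuSCs. Fgfr1 (chr8:25513654-25575718, plus strand, GRCm38) was at 932, 1051, 762 and 1360 CPM in control libraries and at 488, 541, 551 and 590 CPM in cKO libraries. Every cKO library was below every control library, with means of 1026 ± 252 and 542 ± 42.1 CPM (SD, n = 4 each). Fgfr1 was 1.73-fold lower in the fit (log2 fold change −0.79, SE 0.19, adjusted p = 0.00786, edgeR quasi-likelihood test). Fgfr4 (chr13:55152640-55168759, plus strand) was at 855, 831, 766 and 972 CPM in control and at 427, 458, 452 and 496 CPM in cKO libraries, again without overlap. It was 1.71-fold lower (log2 fold change −0.78, SE 0.18, adjusted p = 0.00632). Fold changes come from a fit scaled on the 8 libraries compared, and the CPM values from a scaling over all 16; with all 16 in a single fit the 2 values were −0.92 and −0.90, and neither gene was called (adjusted p = 0.0402 and 0.337).

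Both calls sat near the threshold of adjusted p under 0.02. Limma's robust fit lost both (adjusted p = 0.0355 for Fgfr1 and 0.0212 for Fgfr4), as did library size alone and counts rescaled by abundance. DESeq2, median-of-ratios scaling, a replicate block and the fit without a filter kept both. Fgfr1 was not called without control replicate 2 or 4 or without cKO replicate 2 or 3, where its adjusted p ran up to 0.0633, and Fgfr4 was not called without control replicate 1, 2 or 4 or without cKO replicate 3, where its adjusted p ran up to 0.0281. The log2 fold change stayed between −0.93 and −0.67 for Fgfr1 and between −0.84 and −0.75 for Fgfr4 over all 8 omissions. The MuSC marker sum was also lower, with a range of 1540 to 2236 CPM in cKO against 2538 to 4262 CPM in control libraries. Of the 7 markers, 5 were called lower (Vcam1, Itga7, Cdh15, Calcr and Sdc4). Single markers differed by −0.53 (Pax7, not called) to −1.32 (Calcr) on the log2 scale. The receptors were also divided by the marker sum, a scale that was chosen after the data were seen and carries no test. The paper reports lower Pax7, Sdc4, Calcr and Myf5 in TRF2-deleted MuSCs, so the sum is not a fixed measure of MuSC number. The log2 difference was then 0.02 for Fgfr1 and 0.01 for Fgfr4, with overlap and SDs of 0.12 to 0.21 between libraries. On that scale Spred1 was higher by 0.65, without overlap. Of the other marker lists, the fibroadipogenic gene Dcn (1.20) and the mural gene Rgs5 (1.33) were called higher in cKO libraries and the fibroadipogenic gene Dpt (−1.65) lower, and their part in the result was not tested. In bulk libraries, fewer cells of a type and less RNA of a gene per cell cannot be told apart.

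Etv5 (chr16:22381309-22439719, minus strand) was the third member without overlap in uninjured muscle. It was at 150, 148, 121 and 239 CPM in control and at 60.4, 105, 63.0 and 117 CPM in cKO libraries. Its log2 fold change of −0.80 (SE 0.23) was as large as that of the receptors, but its adjusted p of 0.0327 missed the threshold. Relative to the MuSC marker sum it differed by −0.034, with overlap. It passed without control replicate 3 (adjusted p = 0.0130) and without cKO replicate 4 (adjusted p = 0.0190).

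None of the feedback inhibitors was called in uninjured muscle. Their fitted changes were smaller than those of the receptors, a difference that was not tested. Spry1 (chr3:37639947-37644598, plus strand) was at 686, 658, 393 and 861 CPM in control and at 317, 519, 469 and 428 CPM in cKO libraries. Control replicate 3 fell inside the cKO range, and the difference was not called (log2 fold change −0.45, SE 0.20, adjusted p = 0.207). Spry2 had a log2 fold change of −0.41 (SE 0.27), Spry4 of −0.14 (SE 0.25) and Spred1 of −0.12 (SE 0.20), all with overlapping libraries and adjusted p from 0.398 to 0.803. Dusp6 had means of 37.6 ± 5.69 and 34.8 ± 16.4 CPM and Etv4 of 20.4 ± 10.6 and 21.5 ± 4.60 CPM in control and cKO libraries, and for both the SE of the fold change (0.35 and 0.45 on the log2 scale) exceeded the change.

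Among the 9 members tested in uninjured muscle, 2 were called lower and 0 higher, against 2.63% of 14048 genes lower and 0.584% higher. The groups did not overlap for 3 of 9, against 12.6% of all genes. The median log2 fold change of the 9 was −0.41, against 0.06 over all genes. With library size as the only scaling the median of all genes moved to 0.24, the called genes went from 370 lower and 82 higher to 212 and 176, and 0 members were called.

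Fgf2 was near the counting limit in all groups. The 16 libraries held 0 to 12 estimated counts of it, and the gene did not pass the filter on low counts in any comparison. Its CPM was 4.84 ± 3.64 in control and 10.98 ± 5.22 in cKO libraries of uninjured muscle, which overlapped, and 5.75 ± 2.99 and 3.21 ± 3.22 at 3 DPI. The 0 in replicate 3 labelled cKO at 3 DPI allows up to 3.72 CPM (3 counts on the same CPM scale, counting error only). On the length-corrected scale Fgf2 had a mean of 18.2 in uninjured control libraries. The 21 other genes of the ligand list ran from 4.79 (Fgf7) to 33.9 (Fgf11) there. That list was drawn by gene symbol and not by binding to an FGF receptor. In uninjured cKO libraries the Fgf2 mean was 48.9, above the means of all 21, the next being Fgf17 at 32.2. That scale implies a counted length for Fgf2 of 0.29 times that of Spry1, although its longest transcript (5973 bases) is the longer (2773 bases for Spry1). Its place in the ligand list therefore depends on the isoform counted. Fgf2 overlaps Nudt6 on the opposite strand, which had a mean of 8.25 estimated counts.

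**Figure D2:**
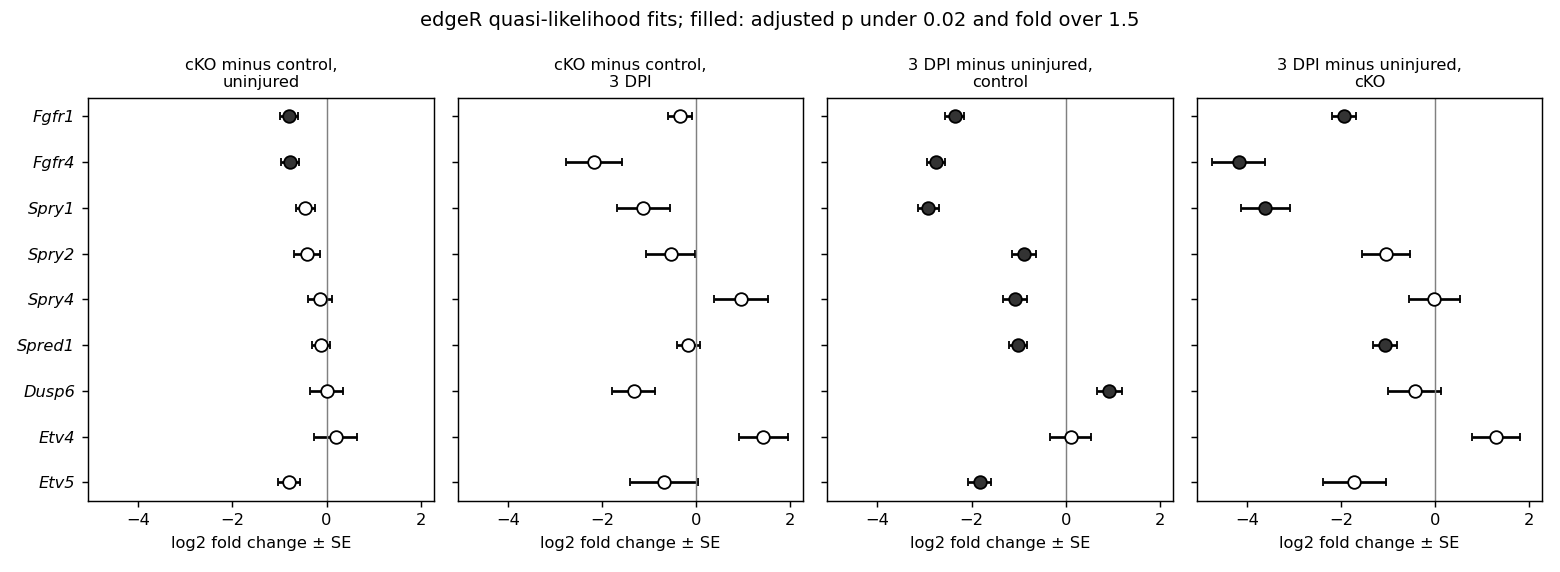
Log2 fold changes (horizontal axis, ± SE) of the 9 tested members in the 4 comparisons, filled where called at an adjusted p under 0.02 and a fold over 1.5 by edgeR. Filled points number 2, 0, 8 and 4 from left to right, and Fgfr4 has the lowest value in both panels that involve the libraries labelled cKO at 3 DPI.

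Most members were lower after injury in control MuSCs. Spry1 fell furthest, from 393 to 861 CPM down to 81.8, 68.1, 75.7 and 105 CPM at 3 DPI, 7.57-fold lower (log2 fold change −2.92, SE 0.22, adjusted p = 1.77e-14). Fgfr4 fell to 124, 114, 133 and 121 CPM, 6.77-fold lower (−2.76, SE 0.19, adjusted p = 2.2e-15), and Fgfr1 to 181, 190, 183 and 223 CPM, 5.12-fold lower (−2.35, SE 0.20, adjusted p = 4.48e-13). The ranges were far apart for all 3. Etv5 fell to 46.3, 40.8, 30.5 and 60.9 CPM (−1.83, SE 0.24, adjusted p = 3.56e-08).

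The other inhibitors fell by less than Spry1. Spry4 fell from 82.7 ± 17.6 to 37.9 ± 7.86 CPM (−1.08, SE 0.26, adjusted p = 0.00119), Spred1 from 229 ± 38.5 to 111 ± 19.8 CPM (−1.01, SE 0.20, adjusted p = 8.14e-05) and Spry2 from 75.1 ± 15.8 to 39.4 ± 9.36 CPM (−0.89, SE 0.26, adjusted p = 0.00869). Dusp6 (chr10:99263231-99267489, plus strand) went the other way. It was at 30.4, 38.7, 44.2 and 37.0 CPM in uninjured and at 58.7, 81.7, 70.8 and 66.7 CPM in injured control libraries, without overlap, 1.91-fold higher (0.93, SE 0.26, adjusted p = 0.0055). Etv4 (chr11:101769742-101785371, minus strand) was level, at 20.4 ± 10.6 and 21.1 ± 9.11 CPM (0.10, SE 0.43, adjusted p = 0.907).

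Of the 9 members tested, 7 were called lower and 1 higher after injury of control muscle, against 9.46% of 15356 genes lower and 10.8% higher. Libraries did not overlap for 8 of 9, against 24.3% of all genes, and the median log2 fold change was −1.08, against 0.07 over all genes. The calls of Spry2 and Dusp6 were the least stable: Spry2 was lost in 7 and Dusp6 in 3 of the other settings, among them the fit on all 16 libraries, in which 5 members were called.

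Markers of MuSCs, of myeloid cells and of fibroadipogenic cells moved with these values. The 7 MuSC markers summed to 2538 to 4262 CPM in uninjured and 666 to 951 CPM in injured control libraries, and all 7 were called lower. The 6 myeloid markers (Ptprc, Cd68, Lyz2, Adgre1, Csf1r and Itgam) summed to 47.8 to 97.7 CPM before and 4031 to 5114 CPM after injury, all 6 were called higher, and none was at 0 in a control library, although the sort removes cells with CD45 and CD11b. In cKO libraries the myeloid sum went from 81.7 to 163 CPM to 1578 to 4702 CPM. All 5 fibroadipogenic markers were called, Pdgfra (1.70), Ly6a (1.92), Lum (1.64) and Dcn (1.59) higher and Dpt (−2.17) lower, while their sum ran from 286 to 429 CPM before and from 295 to 437 CPM after injury. Ly6a encodes Sca1, which the sort also removes. Of the remaining lists Tek (−0.75, 1 of 5 endothelial), Acta2 (−0.80, 1 of 4 mural), Ckm (1.49, 1 of 4 myofiber tested) and 0 of 3 Schwann markers were called. The part of these markers in the injury differences was not tested. Relative to the MuSC marker sum, which fell by 2.07 on the log2 scale in control libraries, Spry1 was still lower by a log2 difference of −0.86, Fgfr4 by −0.72 and Fgfr1 by −0.30, without overlap for Spry1 and Fgfr4 and with overlap for Fgfr1. On that scale Spry2 was higher by 1.15, Spred1 by 1.03, Spry4 by 0.96, Etv5 by 0.21, Dusp6 by 2.95 and Etv4 by 2.26, without overlap for Spry2, Spred1, Dusp6 and Etv4. These values are not levels per MuSC. The marker genes in the sum can themselves change within a cell, and reads of a member can come from other cells in the library.

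**Figure D3:**
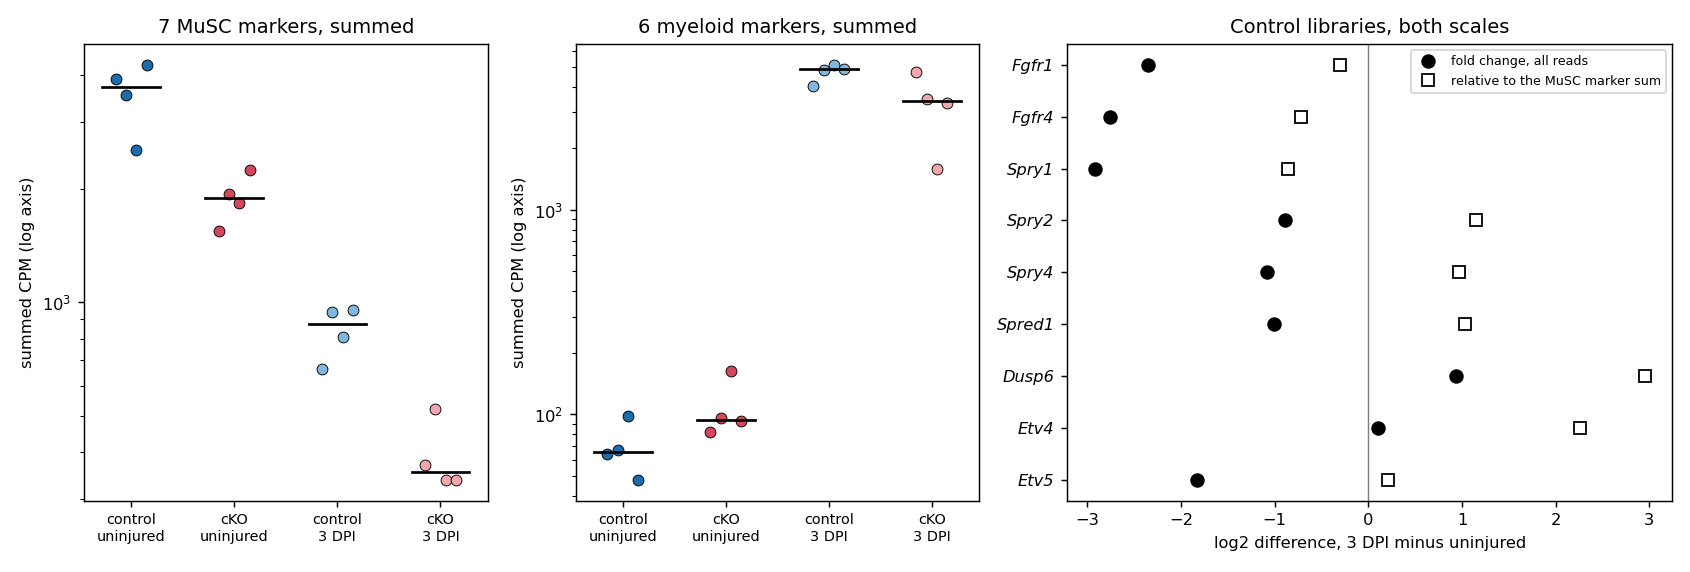
Summed CPM of 7 MuSC and 6 myeloid markers in each library (log axes, bars at the median), and, at right, the log2 difference of each member between 3 DPI and uninjured control libraries in the fit (circles) and relative to the MuSC marker sum (squares). The MuSC sum has medians of 3731, 1883, 873 and 354 CPM from left to right and the myeloid sum of 65.5, 94.1, 4855 and 3417 CPM, and Spry2, Spry4, Spred1 and Etv5 change side between circles and squares.

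The cKO libraries also had lower receptors and Spry1 after injury. Fgfr4 was at 17.5, 54.2, 1.24 and 32.6 CPM in the libraries labelled cKO at 3 DPI, against 427 to 496 CPM uninjured, 18.01-fold lower (log2 fold change −4.17, SE 0.56, adjusted p = 0.000327). Spry1 was at 25.7, 65.7, 3.72 and 52.4 CPM, against 317 to 519 CPM, 12.2-fold lower (−3.61, SE 0.53, adjusted p = 0.000573). Fgfr1 was at 98.1, 134, 187 and 171 CPM, 3.83-fold lower than uninjured (−1.94, SE 0.25, adjusted p = 0.000254). Spred1 passed narrowly at −1.07 (SE 0.25, adjusted p = 0.0195) and was not called in 11 of the other settings. Replicate 3 held the lowest value of both Fgfr4 and Spry1 and the highest of Fgfr1. Without it Fgfr4 was lower by a log2 fold change of −3.75 and Spry1 by −3.21, both still called, as were Fgfr1 at −2.05 and Spred1 at −1.02.

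The MuSC marker sum fell by 2.28 on the log2 scale in the same comparison, with 6 of the 7 markers called lower, and 5 of the 6 myeloid markers were called higher. Relative to that sum Fgfr1 was no longer lower, at 0.37 with overlap, and Spred1 turned to 1.30 without overlap. Fgfr4 at −2.61 and Spry1 at −1.82 were still lower without overlap. Etv4 at 3.46 and Spry4 at 1.85 were higher without overlap, Etv5 was at −0.46, Spry2 at 1.09 and Dusp6 at 1.78 with overlap. Replicate 3 labelled cKO carried much of this. Without it Fgfr4 was at −1.63 and Spry1 at −1.03, both still without overlap, Fgfr1 at 0.17, Spry2 at 0.68, Spry4 at 1.19, Spred1 at 1.26, Dusp6 at 2.10 and Etv4 at 3.18, and Etv5 turned to 1.03. The part of the markers in these differences was not tested.

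Spry2 (−1.05, SE 0.52), Etv5 (−1.72, SE 0.67), Dusp6 (−0.44, SE 0.56) and Spry4 (−0.02, SE 0.54) were not called after injury in cKO libraries. Without replicate 3 labelled cKO at 3 DPI Etv5 was called (−1.28, adjusted p = 0.0121), and Spry4, level with that library, was at −1.01 (adjusted p = 0.0749). Spry2 was then at −1.45 and Dusp6 at −0.13, neither called. Etv4 was at 31.5, 25.4, 75.6 and 89.7 CPM at 3 DPI, against 14.98 to 25.8 CPM uninjured, and its difference of 1.30 (SE 0.51, adjusted p = 0.192) was not called, nor was 1.13 without replicate 3. Of 9 members tested 4 were called lower and 0 higher, against 1.61% of 14578 genes lower and 2.43% higher. Libraries did not overlap for 5 of 9, against 13.6% of all genes, and the median was −1.07, against 0.01 over all genes. Without replicate 3 labelled cKO at 3 DPI, 5 were called, the 4 and Etv5. The injury comparisons of the 2 genotypes share no libraries with each other, but each shares its libraries with a genotype comparison.

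At 3 DPI no member and no gene of 14559 was called between genotypes (0 members of 9, 0% of genes), while 3 members and 9.36% of genes had an unadjusted p under 0.05. DESeq2 called 17 genes lower and 5 higher and limma's robust fit 18 lower and 10 higher, and neither called a member. DESeq2 gave an adjusted p only for Fgfr1, Fgfr4 and Spred1 among the members, so the rest could not be called by it. Fgfr4 lay just above the threshold in both (adjusted p = 0.0278 with DESeq2 and 0.0219 with limma). Among members the lowest p in the edgeR fit was that of Fgfr4. It was at 124, 114, 133 and 121 CPM in control libraries and 17.5, 54.2, 1.24 and 32.6 CPM in those labelled cKO, without overlap. Its log2 fold change was −2.17 (SE 0.59, unadjusted p = 0.00297, adjusted p = 0.452), a 4.49-fold lower level. Without replicate 3 labelled cKO the change was smaller, at −1.79, and Fgfr4 was called (adjusted p = 0.00732), for a reason that was not tested. In the libraries that share a code, 2 per genotype, it was −1.71 (adjusted p = 0.723).

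Dusp6 was at 58.7, 81.7, 70.8 and 66.7 CPM in control libraries and at 45.6, 35.8, 9.92 and 16.3 CPM in those labelled cKO, without overlap (log2 fold change −1.33, SE 0.46, unadjusted p = 0.0123, adjusted p = 0.460). Spry1 also did not overlap, at 68.1 to 105 CPM against 3.72 to 65.7 CPM (−1.12, SE 0.56, adjusted p = 0.551). Etv4 was the member with the largest positive difference, at 15.4, 18.5, 15.7 and 34.6 CPM in control libraries and 31.5, 25.4, 75.6 and 89.7 CPM in those labelled cKO. Control replicate 4 lay inside the cKO range (1.43, SE 0.51, unadjusted p = 0.0158, adjusted p = 0.465). The Spry4 difference of 0.96 (SE 0.58) rested on the 176 CPM of replicate 3 labelled cKO and was −0.085 without it. Without that library Dusp6 was at −1.07, Spry1 at −0.77 and Etv4 at 1.20, none called. In the libraries that share a code Dusp6 was at −0.79, Spry1 at −0.70 and Etv4 at 0.74, with adjusted p from 0.860 to 0.910.

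Fgfr1 overlapped between genotypes at 3 DPI, at 181 to 223 and 98.1 to 187 CPM (log2 fold change −0.35, SE 0.25). Spry2 (−0.54, SE 0.52), Spred1 (−0.16, SE 0.25) and Etv5 (−0.67, SE 0.72) overlapped as well. Without replicate 3 labelled cKO the differences were −0.51 for Fgfr1, −1.001 for Spry2, −0.15 for Spred1 and −0.28 for Etv5, and in the libraries that share a code −0.67, −1.48, −0.29 and −0.13, none called. Etv5 was at 0 in replicate 3 labelled cKO, which allows up to 3.72 CPM there. Groups did not overlap for 3 of the 9 members tested, against 7.84% of all genes, and the median was −0.54, against 0.0014 over all genes. The MuSC marker sum ran from 666 to 951 CPM in control and from 337 to 520 CPM in cKO-labelled libraries, and the myeloid sum from 4031 to 5114 and from 1578 to 4702 CPM. Relative to the MuSC sum, which fell by 1.11 on the log2 scale, Fgfr4 differed by −1.88, Etv5 by −0.70, Spry1 by −0.61 and Dusp6 by −0.47, while Fgfr1 differed by 0.68, Spry2 by 0.31, Spred1 by 0.92, Spry4 by 1.55 and Etv4 by 2.37. On that scale Fgfr4, Spry4 and Etv4 did not overlap. Leaving out replicate 3 labelled cKO turned 3 of these signs, with Etv5 at 0.78, Spry1 at 0.18 and Spry2 at −0.11, and Fgfr4 was at −0.90, Dusp6 at −0.14, Fgfr1 at 0.49, Spred1 at 0.88, Spry4 at 0.89 and Etv4 at 2.097. Fgfr4, Spry4, Etv4 and Etv5 then did not overlap.

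The difference between the genotype effects at 3 DPI and in uninjured muscle was called for 0 of 9 members and 0.0178% of 16822 genes. Its size was −1.30 (SE 0.54, unadjusted p = 0.0236, adjusted p = 0.770) for Fgfr4 and −1.25 (SE 0.58, unadjusted p = 0.0411, adjusted p = 0.845) for Dusp6 on the log2 scale, the 2 of 9 members with an unadjusted p under 0.05, against 5.74% of all genes. It was 0.52 (SE 0.32) for Fgfr1, so that the receptors differed in sign. With 1 library left out the Fgfr4 value ran from −2.03, without replicate 2 labelled cKO at 3 DPI, to −1.03, without replicate 3, and was not called in any of the 16 omissions. Without replicate 3 Dusp6 was at −1.08 and Fgfr1 at 0.27. Limma's robust fit called Fgfr4 (−1.55, adjusted p = 0.00978), and the adjusted p over the other settings ran up to 1. The median of the 9 members was 0.042, against 0.035 over all genes.

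Receptor and Sprouty make-up was read as shares within a library, which do not depend on how libraries are scaled to each other. Fgfr1 and Fgfr4 held nearly all FGF receptor abundance in uninjured control libraries, with Fgfr2 at 0.36% to 1.91% and Fgfr3 at 1.75% to 2.90%. Fgfr1 held 41.4% ± 3.94 in uninjured control, 40.2% ± 0.833 in uninjured cKO, 43.6% ± 2.79 in control at 3 DPI and 53.6% ± 9.83 in cKO-labelled libraries at 3 DPI (SD, n = 4 each). In the last group Fgfr1 held 50.6%, 44.3%, 67.5% and 52.0% and Fgfr4 14.2%, 28.9%, 0.72% and 15.8%. There Fgfr3 held 24.8%, 11.4%, 4.55% and 23.9% and Fgfr2 10.4%, 15.4%, 27.3% and 8.35%. The Fgfr1 share was higher by 13.4 percentage points after injury in cKO libraries in 4 of 4 libraries (two-sided exact permutation p = 0.0286, which is the lowest that 4 against 4 libraries can give, and 0.0762 after adjustment over 8 tests). It differed by −1.17 points between genotypes uninjured (exact p = 0.571), by 9.98 points at 3 DPI (exact p = 0.0857) and by 2.19 points with injury in control libraries (exact p = 0.4). Without replicate 3 labelled cKO at 3 DPI, which had the highest Fgfr1 share, the difference was 8.72 points after cKO injury and 5.36 points between genotypes at 3 DPI.

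Spry1 held most Sprouty abundance in uninjured muscle, 83.5% ± 4.14 in control and 82.4% ± 3.74 in cKO libraries, with Spry2 and Spry4 sharing the remainder. The sum is over these 3 genes, and Spry3 was not analysed here. At 3 DPI it held 56.8% ± 7.62 in control and 41.0% ± 27.5 in cKO-labelled libraries, where the 4 values were 42.4%, 66.3%, 2.43% and 53.0%. The share fell by 26.6 points with injury in control and by 41.4 points in cKO libraries, lower in 4 of 4 libraries each (exact p = 0.0286 and adjusted p = 0.0762 for both). Genotypes differed by −1.03 points uninjured (exact p = 0.8286) and by −15.8 points at 3 DPI (exact p = 0.343). The latter rested on replicate 3 labelled cKO and was −2.92 points without it, and the difference after cKO injury was then −28.5 points. None of the 8 share tests passed after adjustment.

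**Figure D4:**
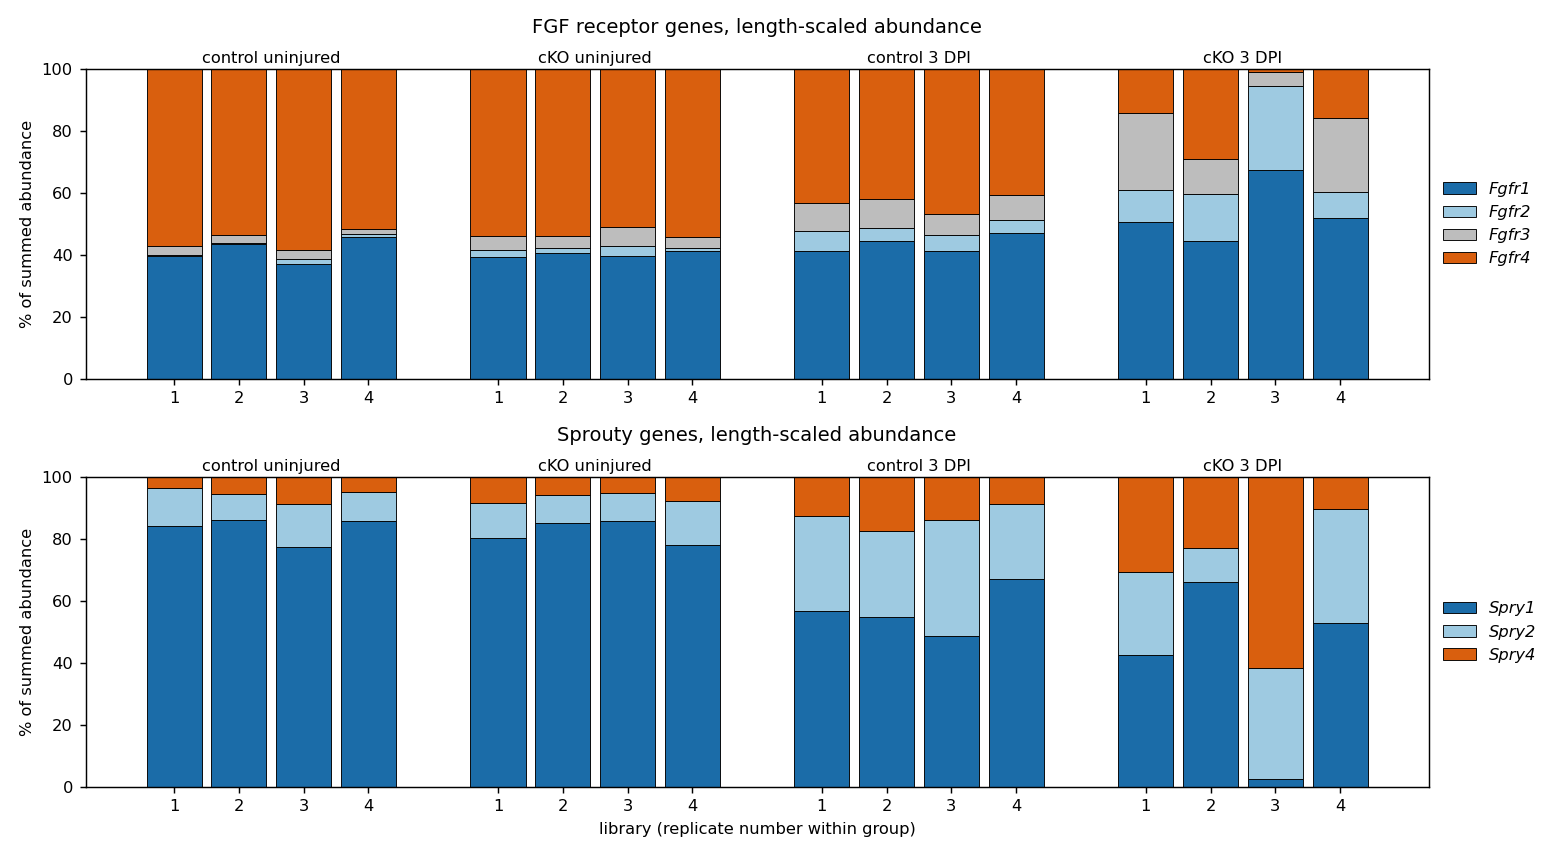
Percent of the summed length-corrected abundance held by each FGF receptor gene (top) and each Sprouty gene (bottom) in each of the 16 libraries, grouped by genotype and injury. The Spry1 segment drops from 77.4% to 86.3% in uninjured control to 48.7% to 67.1% in injured control libraries, and the Fgfr4 segment is smallest in the cKO-labelled libraries at 3 DPI.

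Levels of Fgfr4 and Spry1 ran closely together. Over the 16 libraries the gene most like Fgfr4 among 16977 was Spry1 (Pearson r of log2 CPM 0.98), with r of 0.75 over the 8 uninjured and 0.97 over the 8 injured libraries. Spry1 was most like Zbtb20 (0.99), Fgfr1 most like Esr1 (0.99) and Etv5 most like Ncoa1 (0.98). These correlations describe libraries that share groups, and Spry1 and Fgfr4 were also both lowest in replicate 3 labelled cKO at 3 DPI. Dusp6 was most like Eno3 (0.91), a muscle enolase, with r of 0.49 in uninjured libraries.

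Other FGF pathway genes, in 6 lists chosen by function (the ligand list by gene symbol), gave the surroundings of the members. In uninjured muscle 3 of 77 tested were called lower in cKO MuSCs and 1 higher, against 2.63% and 0.584% of all genes, so that the counts lay near the background. The called genes were the heparan sulfate carriers Sdc4 (−0.88, SE 0.19, adjusted p = 0.00309) and Gpc1 (−0.93, SE 0.22, adjusted p = 0.00673), the EGF receptor inhibitor Errfi1 (−1.18, SE 0.19, adjusted p = 7.27e-05) and the heparan sulfatase Sulf2 (1.24, SE 0.33, adjusted p = 0.0156). Sdc4 is also among the 7 MuSC markers. None of 22 RAS-ERK cascade genes, 12 genes of the ligand list, 5 other receptors and co-receptors or 7 other ETS factors was called. The median log2 fold change was −0.29 for 18 heparan sulfate genes, −0.10 for the cascade and 0.38 for the ligand list, against 0.06 over all genes.

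After injury of control muscle 18 of 81 pathway genes were called lower and 9 higher, against 9.46% and 10.8% of all genes, so that the count of higher genes lay near the background. Of 18 heparan sulfate genes 7 were lower and 2 higher, with Sdc3 up by 2.41 (SE 0.21) and Sulf2 up by 2.696 (SE 0.23) while Sdc4 fell by 1.92 (SE 0.20) on the log2 scale. Of 14 other feedback inhibitors 5 were lower and 2 higher, led by Lrig1 at −2.86 (SE 0.21), Errfi1 at −2.29 (SE 0.21) and Spred2 at −1.84 (SE 0.25). In the cascade 3 of 22 were lower and 4 higher, with the scaffold Ksr1 at −1.73 (SE 0.22), the adaptor Gab1 at −1.42 (SE 0.20) and the adaptor Grb2 at 1.70 (SE 0.23). Elk3 at 1.14 (SE 0.22) and Elk4 at −1.01 (SE 0.22) were the called ETS factors. Fgf11 (−1.12, SE 0.35) was the only gene called of 15 in the ligand list, and Fgfrl1 (−1.23, SE 0.37) of 5 receptors. In cKO libraries 7 of 79 were lower and 2 higher, against 1.61% and 2.43% of all genes, the latter again near the background. Among the called genes were Sdc3 at 2.36, Grb2 at 1.88, Lrig1 at −2.72, Errfi1 at −1.59, Sdc4 at −1.59, Ksr1 at −1.57, Nf1 at −1.54 and Hspg2 at −1.53. At 3 DPI 0 of 81 were called between genotypes, and 0 of 83 in the difference of genotype effects.

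**Figure D5:**
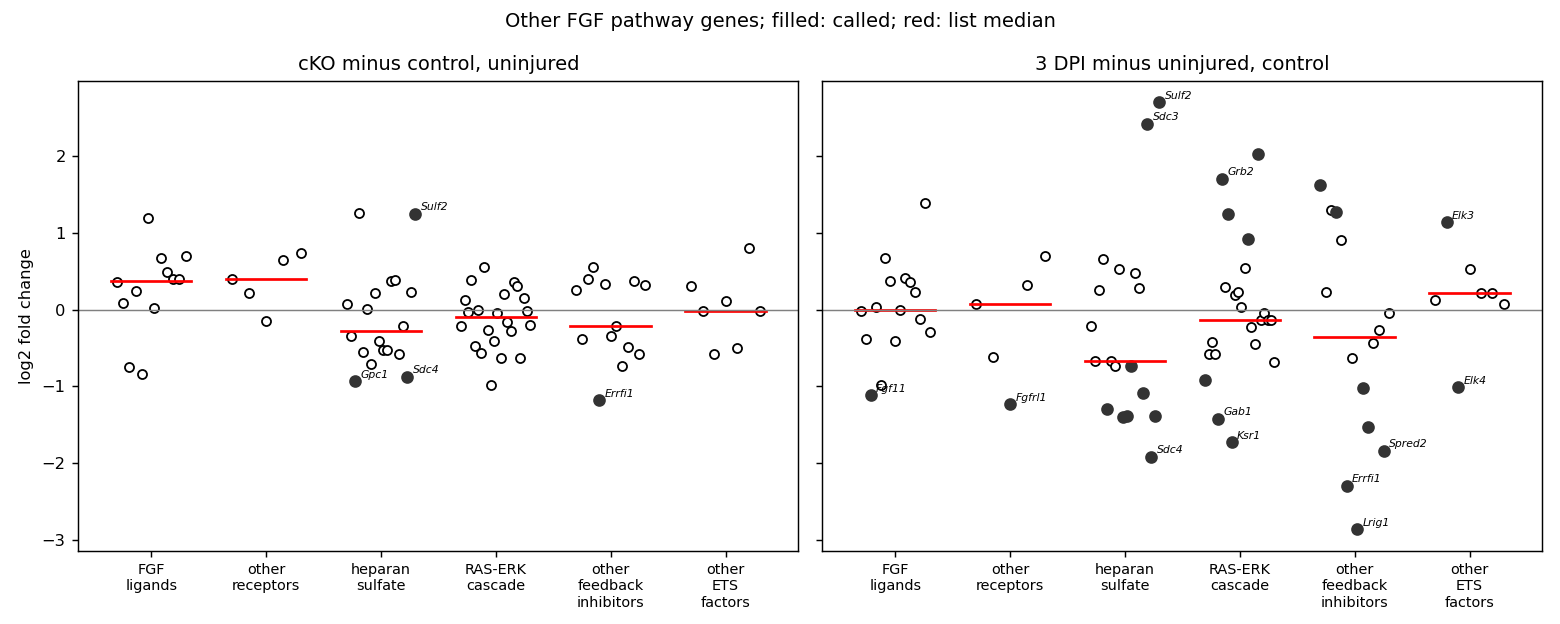
Log2 fold change (vertical axis) of each tested gene of 6 FGF pathway lists, uninjured cKO against control (left) and 3 DPI against uninjured control (right), filled where called and with list medians in red. At left 4 genes are filled, at right 27, with Sulf2 and Sdc3 highest and Lrig1 lowest.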

How the data were processed

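MuSC RNA of 16 libraries (4 per group) was depleted of ribosomal RNA and sequenced from strand-specific, randomly primed CORALL libraries. Per the labels, the authors trimmed reads with Trim Galore 0.6.7, aligned them with STAR 2.6.1d to GRCm38 and quantified them with Salmon 1.5.2; the annotation release and the use of molecular identifiers in counting are not given in the sources used here. They deposited estimated counts per gene, not normalized, and a second table of estimated counts rescaled by abundance. The log2 ratio of the tables follows the longest transcript length (r = 0.88 across 6840 genes), and column sums are equal, so the second table served for length-corrected levels.

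Estimated counts were rounded. Each comparison used its own 8 libraries (the difference of genotype effects all 16), filterByExpr, TMM and edgeR's robust quasi-likelihood test (edgeR 4.0.16, R 4.3.3) with Benjamini-Hochberg adjustment over all genes tested. Calls required an adjusted p under 0.02 (the study's own threshold) and a fold over 1.5. The study itself reports limma with a robust fit as its test, which is an alternative here. The standard error is the log2 fold change divided by the root of its test statistic. Log2 CPM used a prior count of 2. Shares were compared with exact permutation tests. Positions come from GENCODE M21, which may differ from the authors' release. The procedure was tested on simulated data. No table column was left unassigned.

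All 10 members and Terf2 are named, as are at most 3 called genes per pathway list and comparison by smallest p, and for members the most similar genes above a mean log2 CPM of 3. Members and lists were chosen with earlier results of these data known. Alternatives were limma 3.58.1 (robust, on log2 CPM), DESeq2 1.42.0, median-of-ratios scaling, library size alone, no filter, 1 fit of all libraries, a replicate block, the rescaled table, libraries sharing a code, each library left out and, added after the data were seen, levels relative to the MuSC marker sum (0.5 CPM added), also without replicate 3 labelled cKO at 3 DPI. Library totals of 620506 to 1351130 limit the precision of members with few counts, and limits from 0 counts cover counting error only.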

Additional observations from a re-analysis of the deposited data

Results flagged for a closer look

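Of 48 sets of 4 libraries checked (the 10 members and both shares, by group), 2 held a library whose distance from its neighbour was large against the spread of its group, where chance gives about 1 in 20. Spred1 was at 110.7 CPM in replicate 4 labelled cKO at 3 DPI, above 3 libraries between 90.5 and 92.3 CPM. Etv4 was at 34.6 CPM in control replicate 4 at 3 DPI, above 3 libraries between 15.4 and 18.5 CPM.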

How the results depend on the processing

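The 2 receptor calls in uninjured muscle were lost (0 members called) with limma's robust fit, with library size alone, with all 16 libraries in 1 fit and with the rescaled table, while DESeq2 and median-of-ratios scaling also gave 2 members and the replicate block and the fit without a filter gave 3, adding Etv5. In none of these 8 settings did the receptors change direction. With all 16 libraries in 1 fit, members called after injury of control muscle went from 8 to 5, pathway genes called in uninjured muscle from 4 to 1 and in the cKO injury comparison from 9 to 14. The rescaled table called 2 members in the cKO injury comparison, and limma's robust fit 1 in the difference of genotype effects. Leaving out 1 library at a time, members called ranged from 0 to 3 in uninjured muscle, 0 to 1 at 3 DPI, 6 to 8 in control injury and 3 to 5 in cKO injury, and stayed at 0 for the difference of genotype effects. The causes were not tested.

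Sign changes were as follows. In uninjured muscle library size alone gave 0.050 for Spry4 and 0.069 for Spred1, and Dusp6 gave −0.22 with limma, −0.012 with DESeq2, −0.013 with median-of-ratios scaling, −0.072 without a filter, −0.12 with all libraries, −0.066 with the replicate block and −0.025 in the rescaled table. Etv4 after control injury gave −0.17 with limma, Spry4 after cKO injury 0.16 with library size alone and 0.024 with all libraries, Terf2 at 3 DPI −0.18 in the libraries sharing a code (0.44 in all 8), and Spred1 in the difference of genotype effects −0.0017, −0.12 and −0.085 with median-of-ratios scaling, library size alone and no filter. With 1 library left out, sign changes gave ranges of −0.38 to 0.16 (Dusp6) and −0.14 to 0.43 (Etv4) uninjured, −0.085 to 1.23 (Spry4, 0.96 with all 8 libraries and below 0 only without replicate 3 labelled cKO) at 3 DPI, −0.26 to 0.35 (Etv4) in control injury, −1.01 to 0.31 (Spry4) in cKO injury, and −0.60 to 0.14 (Spry2), −0.17 to 0.16 (Spred1) and −0.20 to 0.51 (Etv5) for the difference of genotype effects. The Fgfr1 share after cKO injury was 8.14 points higher with estimated counts and 8.72 to 16.4 with 1 library left out, at 3 DPI 5.36 to 13.1 and uninjured −2.68 to 0.26; the Spry1 share ran from −3.06 to 0.36 uninjured, from −24.2 to −2.92 at 3 DPI and from −49.8 to −28.5 after cKO injury.

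Relative to the MuSC marker sum, uninjured differences were 0.015 (Fgfr1), 0.0081 (Fgfr4), 0.35 (Spry1), 0.36 (Spry2), 0.66 (Spry4) and 0.65 (Spred1); at 3 DPI 0.68 (Fgfr1), 0.31 (Spry2) and 0.92 (Spred1); in control injury 1.15 (Spry2), 0.96 (Spry4), 1.03 (Spred1) and 0.21 (Etv5); and in cKO injury 0.37 (Fgfr1), 1.09 (Spry2), 1.85 (Spry4), 1.30 (Spred1) and 1.78 (Dusp6). Without replicate 3 labelled cKO at 3 DPI the sign changes on that scale were at 3 DPI 0.49 (Fgfr1), 0.18 (Spry1), 0.88 (Spred1) and 0.78 (Etv5), with Spry2 at −0.11 no longer among them, and in cKO injury 0.17 (Fgfr1), 0.68 (Spry2), 1.19 (Spry4), 1.26 (Spred1), 2.10 (Dusp6) and 1.03 (Etv5). Of 925 gene values over all settings 788 kept direction and side of the threshold, 39 fell below it, 12 passed it, 71 changed sign and 15 without a test moved by more than the spread between libraries. Same-numbered libraries deviated together little, with correlations from −0.11 to 0.11. In the uninjured genotype comparison cKO replicates 2, 3 and 4 were closest to the control library of their own number, at 0.11, 0.047 and 0.041. In the other comparisons no library was closest to its own number. The replicate block thus rests on no established pairing. At these library totals Fgf2, Etv4 and Dusp6 rest on few counts.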
